A study of Rattus norvegicus with 16 samples.

Results

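Polyamine metabolism genes were followed through an androgen receptor agonist experiment in cultured cells taken from a rat muscle. The 10 genes were Odc1, Amd1, Srm, Sms, Agmat, Sat1, Smox, Oaz1, Oaz2 and Azin1, taken as every probe set annotated with exactly 1 of these symbols. They had 14 probe sets of the 20826 on the array with 1 gene symbol, and 13 of the 14 reached the minimum mean signal for testing. The cells, at passage 5, were labelled as satellite cells, the muscle precursors, from the levator ani, an androgen-dependent muscle of the pelvic floor. They were exposed for 4 h or 48 h to 0.2% DMSO as vehicle or to NARA, an agonist of the androgen receptor that is not a steroid, at 10 nM. All groups were kept in medium with 10% charcoal-stripped serum, from which steroids have been removed. Of 16 Affymetrix arrays, 4 per group, the authors kept 13, namely 4 of vehicle and 2 of NARA at 4 h, and 3 of vehicle and 4 of NARA at 48 h, and these are the arrays compared here. The titles call them biological replicates without naming cultures or animals. The p-values therefore measure only how far these samples spread, and that spread may be technical.

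The polyamines putrescine, spermidine and spermine are small positively charged molecules that bind nucleic acids and are needed for growth. Odc1 makes putrescine from ornithine, Amd1 makes the donor of aminopropyl groups, and Srm and Sms add such groups in turn to give spermidine and then spermine. Sat1 and Smox run the path backwards. Antizymes, encoded by Oaz1 and Oaz2, bind ornithine decarboxylase and send it to the proteasome, and Azin1 encodes an inhibitor that ties up antizyme. Odc1 and Amd1 are known as androgen-responsive genes in prostate and skeletal muscle. Antizyme and ornithine decarboxylase are controlled to a large extent in translation and protein turnover, which arrays of RNA do not measure.

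Pairs of the 13 arrays had correlations of 0.930 to 0.956 over the probe sets, which do not count as independent replicates. NARA 4 h replicates 1 and 4, left out by the authors, correlated with the 13 arrays at 0.645 to 0.673, and the third left-out array, vehicle 48 h replicate 1, at 0.922 to 0.933. A set of 3 known steroid-responsive genes, Fkbp5, Igf1 and Tsc22d3, rose with NARA at 48 h, 3 of 3, against 1.71% of all genes. At 4 h their log2 changes lay between 0.33 and 0.82, and 0 of 3 passed in limma. There 3 of 3 had an unadjusted p under 0.05, against 4.28% of all genes. The groups of 2 of 3 did not overlap, against 14.2%. The 3 were chosen with earlier results of these data known, so their rise is not an independent check of the treatment. Fkbp5, a steroid receptor chaperone induced by androgens, had a mean signal of 758 in vehicle and 2776 in NARA at 48 h, which differ by 1.80 on the log2 scale (SE 0.276, limma adjusted p = 0.00475). The labelled cell type was checked against its markers. Of 10 satellite cell and myoblast markers, 8 had a probe set, and Pax7 and Myf5 had none with 1 symbol. Of these 8, 7 had a mean signal of at least 300, Myog, Des and Cdh15 among them, and Myod1 lay below it at 83.9. Of 10 fibroblast markers, 10 were above that minimum. The median of the mean signals was 945 for the 8 satellite cell markers and 54058.5 for the fibroblast markers. Of 11 liver markers on the array, 7 also reached the minimum, so reaching it does not by itself identify a cell type. The marker signals therefore do not establish the labelled cell type. In bulk RNA, fewer cells of a type and less RNA per cell cannot be told apart.

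The comparison of NARA with vehicle at 48 h addressed the later response to the agonist. Sms, which encodes the enzyme that turns spermidine into spermine, fell to 0.511 times its vehicle mean, and no other polyamine gene passed the test. Of the 10 genes by their brightest probe set, 0 rose and 1 fell, while 3.21% of the 11286 genes tested passed, 1.5% lower and 1.71% higher. The median log2 change was -0.025 for the 10 genes and -0.0051 for all genes, and 5 of the 10 had a positive and 5 a negative value. At an unadjusted p under 0.05 there were 2 of 10, against 17.1% of all genes.

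**Figure D1:**
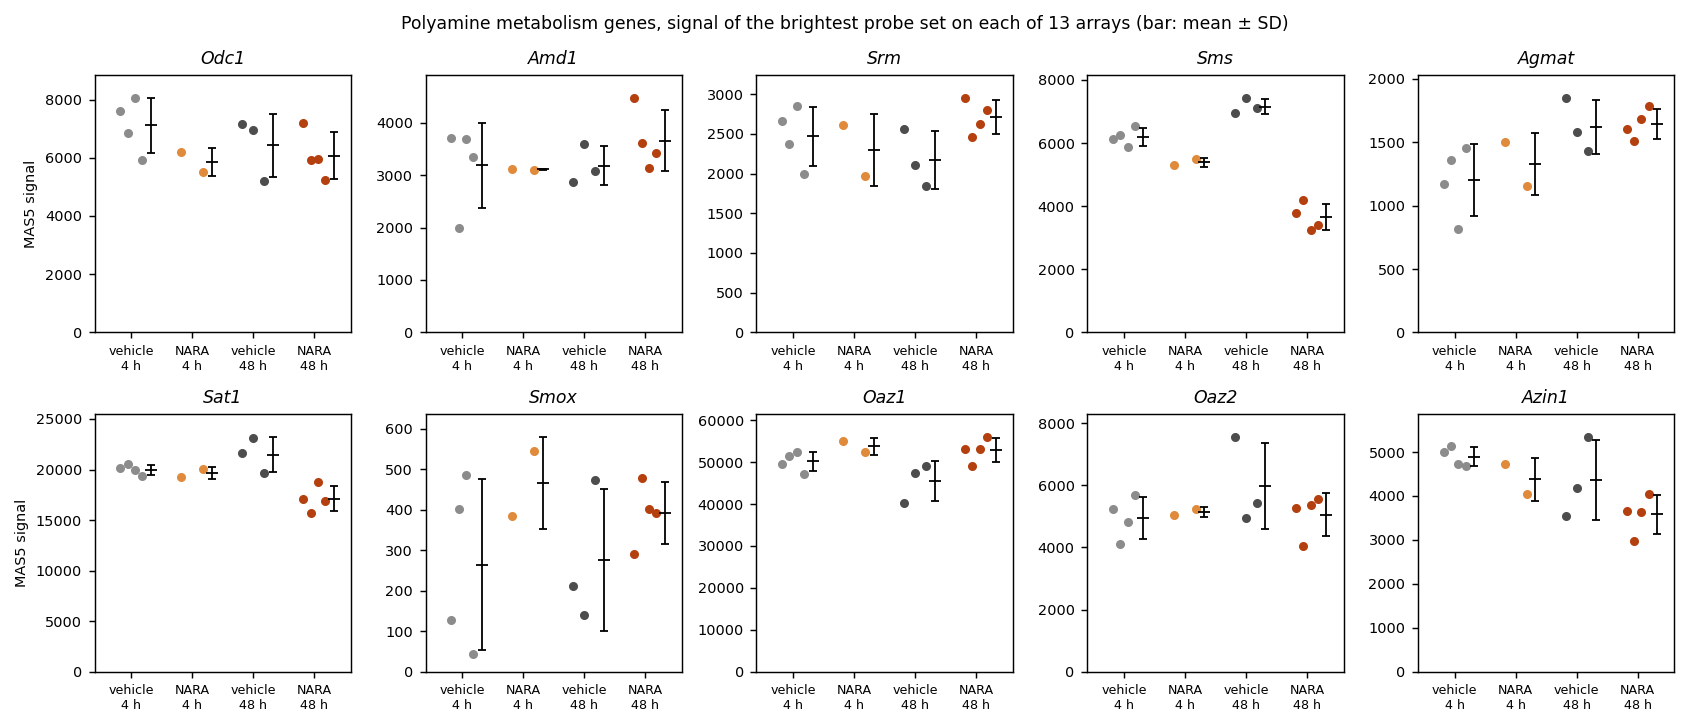
MAS5 signal on a linear scale (y axis, from 0) of the brightest probe set of each of the 10 polyamine genes on the 13 arrays, by group, with bars for mean ± SD. In Sms the 4 NARA 48 h arrays, at 3256 to 4186, lie below all other arrays, which start at 5295, while in Odc1, Amd1, Srm and Agmat the groups at 48 h overlap.

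Sms was measured by 2 probe sets. On the brighter one, the 3 vehicle 48 h arrays read 6938, 7429 and 7106, and the 4 NARA 48 h arrays 3784, 4186, 3256 and 3400.5. The groups did not overlap, and the gap between them was several times the spread within either. The log2 change was -0.97 (SE 0.104, 95% interval -1.19 to -0.74, adjusted p = 0.000452 in limma), a 1.95-fold lower level on the log2(signal + 50) scale. Of the 11286 genes tested, Sms ranked 33 by p and 126 from the lowest log2 change. On the dimmer probe set the vehicle arrays read 4941, 4037 and 4747 and the NARA arrays 2791, 3570.1, 2434 and 2544. These did not overlap either, with a log2 change of -0.69 (SE 0.143, adjusted p = 0.0256). The probe sets share the arrays and the gene, so they check the measurement and are not separate samples. With vehicle 48 h replicate 1 put back, which read 6351 on the brighter probe set, the change was -0.92 (adjusted p = 0.000175). With all 16 arrays in the fit, NARA 4 h replicates 1 and 4 included, it was -0.92 (SE 0.982, adjusted p = 1.00), and with the 16 weighted by their quality it was -0.97 (SE 0.298, adjusted p = 0.114). Over the alternatives run, the adjusted p of this change lay between 3.09e-06 and 1.00.

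Across the 4 groups, Sms took the order vehicle 48 h (7158 ± 250 (SD, n = 3)), vehicle 4 h (6198 ± 276 (SD, n = 4)), NARA 4 h (5389 ± 132 (SD, n = 2)) and NARA 48 h (3656.5 ± 417 (SD, n = 4)). The arrays of neighbouring groups, ordered here by their means, did not overlap at any step. Of all genes, 9.57% did not overlap over time in vehicle, 14.2% between NARA and vehicle at 4 h and 22.4% over time in NARA. None of the 3 steps passed limma's threshold, with 0.21 over time in vehicle (SE 0.104, adjusted p = 0.697), -0.20 for NARA against vehicle at 4 h (SE 0.117, adjusted p = 1.00) and -0.56 over time in NARA (SE 0.117, adjusted p = 0.0610). On the dimmer probe set only the NARA 48 h group, at 2835 ± 512, stood apart, and the other 3 groups, between 4239 and 4575, overlapped.

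The putative promoters of the 4 biosynthetic genes Sms, Srm, Odc1 and Amd1 are shown because these genes act in consecutive steps and only Sms passed the test. They are the 250 bases before the annotated start from RefSeq, build GRCr8, at chrX:41331753-41332002 on the + strand for Sms, chr5:164308752-164309001 (+) for Srm, chr6:46058415-46058664 (+) for Odc1 and chr20:45265983-45266232 on the - strand for Amd1. Capitals mark matches to the motifs searched, in 5′ to 3′ direction of the gene.
Sms: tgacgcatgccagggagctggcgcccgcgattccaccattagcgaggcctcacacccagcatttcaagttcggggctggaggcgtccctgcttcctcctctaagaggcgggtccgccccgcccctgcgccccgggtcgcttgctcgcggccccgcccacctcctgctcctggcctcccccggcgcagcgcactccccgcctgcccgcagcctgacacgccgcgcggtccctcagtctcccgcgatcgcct
Srm: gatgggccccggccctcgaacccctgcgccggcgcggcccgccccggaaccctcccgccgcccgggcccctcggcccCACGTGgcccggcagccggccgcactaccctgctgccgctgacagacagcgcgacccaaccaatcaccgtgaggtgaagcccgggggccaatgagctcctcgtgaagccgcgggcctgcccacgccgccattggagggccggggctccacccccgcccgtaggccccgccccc
Odc1: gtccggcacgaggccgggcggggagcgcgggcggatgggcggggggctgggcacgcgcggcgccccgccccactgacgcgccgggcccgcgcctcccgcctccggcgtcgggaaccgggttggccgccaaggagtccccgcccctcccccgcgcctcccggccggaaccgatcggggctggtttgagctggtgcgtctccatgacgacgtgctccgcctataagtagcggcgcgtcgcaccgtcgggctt
Amd1: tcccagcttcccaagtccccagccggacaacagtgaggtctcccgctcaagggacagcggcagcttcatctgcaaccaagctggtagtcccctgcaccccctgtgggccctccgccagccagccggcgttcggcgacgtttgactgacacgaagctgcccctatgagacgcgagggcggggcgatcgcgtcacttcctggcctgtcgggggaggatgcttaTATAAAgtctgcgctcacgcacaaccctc
The motifs were CACGTG, the E-box bound by Myc and related factors, TATAAA, the TATA box, AGAACA, a single arm of the androgen response element, and the full element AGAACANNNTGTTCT, which contains that arm. All were searched on both strands. Srm had an E-box that began 173 bases before the start, and Amd1 a TATA box at 29 bases. The Sms and Odc1 windows held none of the 4 motifs in these exact letters. Near matches were not searched, and the Odc1 window holds tataag, which differs from TATAAA in its last base. Windows were found for 9 of the 10 genes, and Oaz1 had an E-box as well as a TATA box. An E-box was present in 5.59% and a TATA box in 12.9% of all 33469 windows of this length, the arm in 17.5% and the full element in 0.012%, and 0 of the 9 held the arm. The Sms window was 72.8% G and C, that of Srm 78.4% and that of Odc1 78.0%, against a median of 51.2%.

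Upstream of Sms, none of the genes that supply its substrates passed at 48 h. Srm, the enzyme before Sms and related to it, read 2563, 2114 and 1838 in vehicle and 2952, 2466, 2630 and 2805 in NARA. One vehicle array lay inside the NARA range, and the log2 change of 0.32 (SE 0.158, adjusted p = 0.350) had the opposite sign to that of Sms. The 95% interval ran from -0.02 to 0.67.
Amd1, the source of the aminopropyl donor, read 2866, 3597 and 3079 in vehicle and 4474, 3607, 3129 and 3420 in NARA. These ranges overlapped, with a log2 change of 0.19 (SE 0.206, adjusted p = 0.711) and a 95% interval of -0.26 to 0.65. Odc1, the first enzyme of the path, read 7146, 6945 and 5189 in vehicle and 7177, 5909, 5970 and 5228 in NARA, so that each group spanned nearly the same range. Its log2 change was -0.08 (SE 0.156, adjusted p = 0.864), and the 95% interval allowed between 0.748 and 1.20 times the vehicle level. Agmat, annotated as agmatinase, which gives putrescine from agmatine, read 1850, 1583 and 1430.5 against 1606, 1510, 1682 and 1789, a log2 change of 0.03 (SE 0.184, adjusted p = 0.968).

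**Figure D2:**
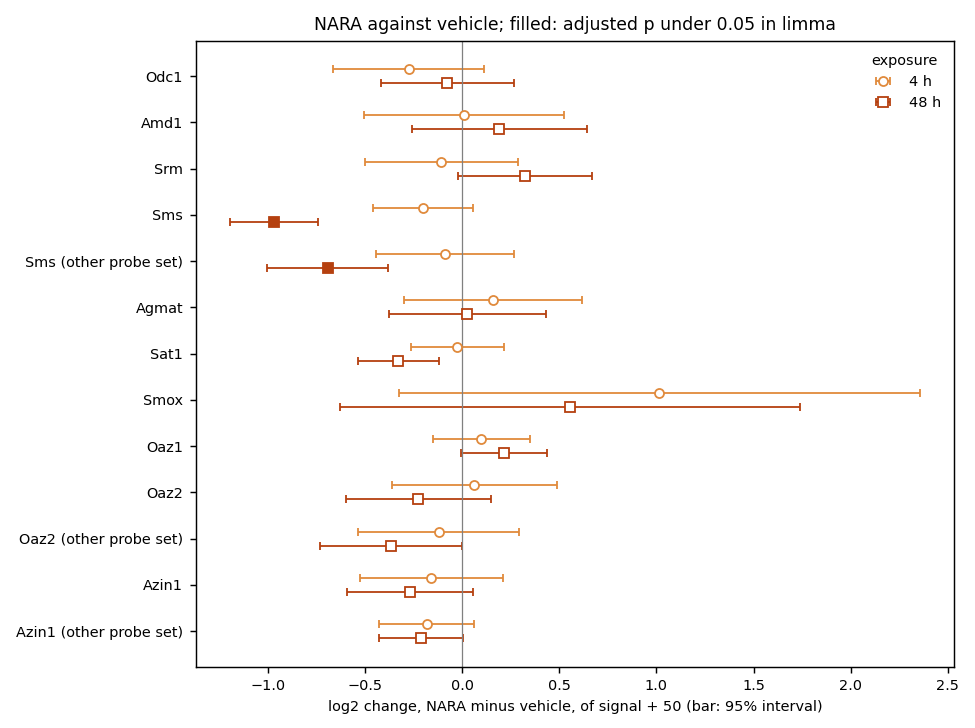
Log2 change of signal + 50 (x axis), NARA minus vehicle, for the 13 tested probe sets of the polyamine genes at 4 h (circles) and 48 h (squares), with 95% intervals and filled symbols for an adjusted p under 0.05. Only the 2 Sms probe sets at 48 h are filled, at -0.97 and -0.69, and the interval of Smox is the widest.

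The genes of polyamine breakdown were measured with very unequal precision. Sat1, which acetylates spermidine and spermine for breakdown or export, read 21625, 23102 and 19662 in vehicle at 48 h and 17056, 15744, 18737 and 16846 in NARA. Its groups did not overlap, and NARA was the lower one. The log2 change of -0.33 (SE 0.0957, 95% interval -0.54 to -0.12, adjusted p = 0.104) did not pass. It passed with a signal minimum of 1000 (adjusted p = 0.0386) and with a trended and robust prior (adjusted p = 0.0163), and over all alternatives its adjusted p lay between 0.0163 and 1.00. Sms and Sat1 were the 2 of 10 genes whose groups did not overlap at 48 h, against 16.7% of all genes. Smox, which oxidises spermine back to spermidine, read 212, 141 and 473 in vehicle and 291, 479, 403 and 392 in NARA. At these dim signals the log2 change was 0.56 (SE 0.540, adjusted p = 0.679), with a 95% interval from -0.63 to 1.74. A probe set annotated with Smox and a further symbol, outside the rule for that reason, had a log2 change of -0.08 (SE 0.172, adjusted p = 0.870).

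Of the regulators of ornithine decarboxylase, none passed at 48 h. Oaz1, the main antizyme gene, read 40157, 47432 and 49126 in vehicle and 53065, 49072, 53216 and 55947 in NARA. The ranges touched by 1 array, with a log2 change of 0.22 (SE 0.100, adjusted p = 0.319). Oaz2, a second antizyme gene, read 7543, 4936 and 5435 against 5255, 4042, 5371 and 5551, a log2 change of -0.22 (SE 0.170, adjusted p = 0.576). Its other probe set lay at -0.37 (SE 0.167, adjusted p = 0.312). The brighter probe set of Azin1 read 3541, 4182 and 5335 in vehicle and 3665, 2975, 3628 and 4053 in NARA, a log2 change of -0.27 (SE 0.148, adjusted p = 0.421). On its other tested probe set the groups did not overlap, at 2690 to 3075 in vehicle and 2259 to 2536 in NARA, and the change was -0.21 (SE 0.0980, adjusted p = 0.325). A further Azin1 probe set had a mean signal of 135.0 and was not tested.

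The comparison at 4 h addressed the early response, with only 2 NARA arrays. None of the 10 genes passed, and 0 had an unadjusted p under 0.05, where limma called 0 of 11286 genes (0%) and 4.28% of them were under 0.05. The median log2 difference was -0.0075 over the 10 genes and -0.0016 over all genes.
Sms read 6121, 6245, 5882 and 6546 in vehicle and 5295 and 5482 in NARA, without overlap, and Oaz1 read 49614, 51524, 52381 and 47230.2 against 55105 and 52385. The Oaz1 difference was 0.10 (SE 0.114, adjusted p = 1.00). These were the 2 of 10 genes whose groups did not overlap at 4 h, against 14.2% of all genes. Odc1 read 7622, 6861, 8054 and 5907 in vehicle and 6187 and 5502 in NARA, a difference of -0.27 (SE 0.177, adjusted p = 1.00). The 95% interval of Odc1 allowed between 0.632 and 1.08 times the vehicle level. Amd1 differed by 0.01 (SE 0.234), Srm by -0.11 (SE 0.179), Agmat by 0.16 (SE 0.209) and Sat1 by -0.02 (SE 0.108). Oaz2 differed by 0.06 (SE 0.193) and Azin1 by -0.16 (SE 0.167), and the other Oaz2 probe set by -0.12 (SE 0.189). On the other tested Azin1 probe set the groups did not overlap, at 2618 to 3087 in vehicle and 2395 to 2532 in NARA. Its difference was -0.18 (SE 0.111) and did not pass. Smox had the greatest difference in size, 1.01 (SE 0.612), with vehicle arrays from 44.5 to 485 that overlapped the NARA values of 386 and 546.

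Whether the effect of NARA differed between the times was tested directly. For Sms the 48 h effect minus the 4 h effect was -0.77 (SE 0.157, 95% interval -1.11 to -0.42, adjusted p = 0.109), which did not pass. It passed with a signal minimum of 1000 (adjusted p = 0.0274) and with a trended and robust prior (adjusted p = 0.0152), turned positive with all 16 arrays (1.92), and had an adjusted p between 0.0152 and 0.749 over all alternatives. For the dimmer Sms probe set it was -0.61 (SE 0.216, adjusted p = 0.440). The next values in size were -0.46 for Smox (SE 0.816), 0.43 for Srm (SE 0.239, adjusted p = 0.641) and -0.30 for Sat1 (SE 0.145, adjusted p = 0.586). Of the 10 genes, 0 passed and 1, Sms, had an unadjusted p under 0.05, while 0.151% of all genes passed in limma and 9.18% were under 0.05.

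Time in culture was compared within each treatment. In vehicle, 0 of the 10 genes passed and 1 had an unadjusted p under 0.05, where limma called 0 of 11286 genes (0%) and 7.87% of them were under 0.05. That gene was Agmat, which read 1172, 1362, 813 and 1456 at 4 h and 1850, 1583 and 1430.5 at 48 h, a log2 change of 0.44 (SE 0.184, adjusted p = 0.654). In NARA, 0 of the 10 genes passed and 1 had an unadjusted p under 0.05, where 0.868% of all genes passed in limma and 11.8% were under 0.05. That gene was Sms, with a change from 4 h to 48 h of -0.56 (SE 0.117, 95% interval -0.82 to -0.30, adjusted p = 0.0610), and -0.59 (SE 0.162, adjusted p = 0.153) on its dimmer probe set. It passed without NARA 48 h replicate 2 (-0.63, adjusted p = 0.0358), turned positive with all 16 arrays (2.08), and over all alternatives adjusted p lay between 0.00877 and 0.721. Without overlap between 4 h and 48 h there was 1 of 10 genes in vehicle, Sms (9.57% of all genes), and in NARA 4 of 10, Amd1, Sms, Agmat and Sat1 (22.4% of all genes). These comparisons share their arrays with those of NARA against vehicle. For Odc1 the change over time was -0.15 (SE 0.156) in vehicle and 0.05 (SE 0.177) in NARA, and for Amd1 0.03 (SE 0.206) and 0.22 (SE 0.234).

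The 3 genes most like Sms over the 13 arrays, by Pearson correlation of log2(signal + 50) with group differences included, were Masp1 (r = 0.988), Socs5 (r = 0.983) and Ptgs2 (r = 0.973). The arrays fall into treatment groups that these correlations span. A fall of the 3 genes with NARA at 48 h is thus largely built into their choice and is no separate result. With group means removed, r was 0.897, 0.568 and 0.597. Masp1, a protease of the complement system, fell from a mean of 3400 to 1470 with NARA at 48 h, and its log2 change was -1.20 (adjusted p = 0.000662). Socs5, of the suppressors of cytokine signalling, fell from 15497 to 8285 (-0.90, adjusted p = 0.000183). Ptgs2, the inducible enzyme of prostaglandin synthesis, fell from 4585 to 893 (-2.31, adjusted p = 2.75e-05).

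Genes that feed, use or move polyamines were taken from related lists, beside the 3.21% of all genes that passed. At 48 h in limma, 0 of 8 genes of S-adenosylmethionine supply and methylthioadenosine salvage passed, with 1 at an unadjusted p under 0.05 and a median log2 change of -0.07. That gene was Ahcy, which clears S-adenosylhomocysteine, at 3680 to 4813 in vehicle and 2747 to 3291 in NARA. These ranges did not overlap, and the change was -0.51 (SE 0.126, adjusted p = 0.0596). Mat2a, which makes S-adenosylmethionine, lay at 0.15 (SE 0.0825, adjusted p = 0.419). It read 7250 to 7814 in vehicle and 8172 to 8513 in NARA, also without overlap but higher in NARA. That makes 2 of 8 genes of this list without overlap, against 16.7% of all genes. Of 6 measured genes of arginine and ornithine supply, 0 passed and 0 were under 0.05, with Slc7a1, a cationic amino acid transporter, at 0.19 and Gatm at -0.27. Of 4 further genes of breakdown and control, 0 passed and 0 were under 0.05. Paox, the oxidase of acetylated polyamines, lay at -0.46 (SE 0.229, adjusted p = 0.366) and Oaz3 at 0.51 (SE 0.317, adjusted p = 0.473).

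Of the 6 measured genes of polyamine and cation transport, 0 passed, 3 had an unadjusted p under 0.05 and 5 had a positive value, with a median of 0.30. Of all genes, 17.1% were under 0.05. Slc3a2, a subunit of amino acid exchangers that has been tied to polyamine export, read 9119 to 9686 in vehicle and 11363 to 13095 in NARA. The difference was 0.35 (SE 0.0956, adjusted p = 0.0850). Atp13a2, a lysosomal polyamine exporter, read 1141 to 1296 and 1391 to 1937, a difference of 0.50 (SE 0.153, adjusted p = 0.117). The groups of both genes did not overlap, nor did those of Slc18b1, named here after its values were seen (0.25, SE 0.102, adjusted p = 0.251), which makes 3 of 6 against 16.7% of all genes.
Of 4 genes for hypusine, the modification of translation factor eIF5A that consumes spermidine, 0 passed and 0 were under 0.05. Dhps, which starts it, lay at -0.23 and Eif5a2 at 0.09. Of 5 transcription factors, 0 passed and 0 were under 0.05. Myc, a known activator of Odc1, lay at -0.20 (SE 0.172, adjusted p = 0.620) and Nfe2l2 at -0.19 (SE 0.0900, adjusted p = 0.346).

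**Figure D3:**
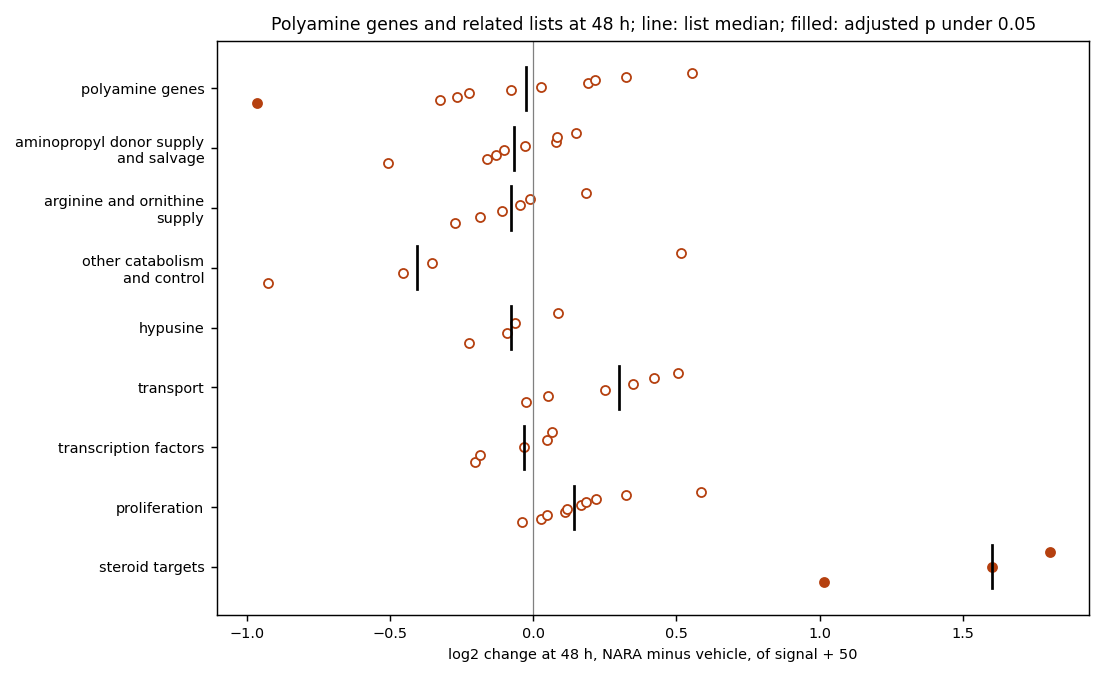
Log2 change of signal + 50 at 48 h, NARA minus vehicle (x axis), of each measured gene of the polyamine set and of related lists, with a black line for the list median and filled symbols for an adjusted p under 0.05. Among the polyamine-related lists only Sms, at -0.97, is filled, while the 3 steroid targets lie between 1.02 and 1.80.

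Marker lists of cell types and proliferation were summed beside Sms at 48 h. The 8 satellite cell markers on the array summed to 16798 to 21135 in vehicle and 9382 to 12518 in NARA. Of the 7 tested genes of this list 2 fell in limma, against 1.5% of all genes. They were Cxcr4, from a mean of 4923 to 590 (log2 change -3.02, adjusted p = 0.000157), and Sdc4, from 10613 to 6362 (-0.72, adjusted p = 0.0305). The lower sum lay in these 2 genes, the brightest of the list. Itga7 lay at 0.95 (SE 0.357, adjusted p = 0.212) and the muscle genes Des, Cdh15 and Myog at -0.07, 0.05 and 0.18. The 6 smooth muscle markers summed to 15403 to 17909 in vehicle and 10877 to 15316 in NARA, which do not overlap. The 10 fibroblast markers summed to 548688 to 668337 and 582548 to 710456, which overlap. In the fibroblast list 2 genes, Lum and Pdgfra, fell in limma, against 1.5% of all genes, and 0 rose. An unadjusted p under 0.05 was found for 5 of 10, against 17.1% of all genes. Groups did not overlap for 6 of 10, against 16.7% of all genes. Of these, Lum, Pdgfra, Dcn and Postn were lower in NARA, and Col3a1 and Col1a2 were higher. None of the 6 smooth muscle markers passed in limma, and 1 had an unadjusted p under 0.05. Of all genes, 3.21% passed and 17.1% were under 0.05. In this list 3 log2 changes were positive and 3 negative. Its 2 brightest genes, Tagln and Acta2, were lower in NARA, at means of 8547 and 5579 for Tagln and 5076 and 4019 for Acta2. The 10 proliferation genes summed to 23631 to 25789 in vehicle and 25074 to 30285 in NARA, which overlap. Of these 10, 9 had a positive value, with a median log2 change of 0.14. In limma 0 of 10 passed the threshold and 1 had an unadjusted p under 0.05, against 17.1% of all genes. The part of these in the Sms result was not tested.

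**Figure D4:**
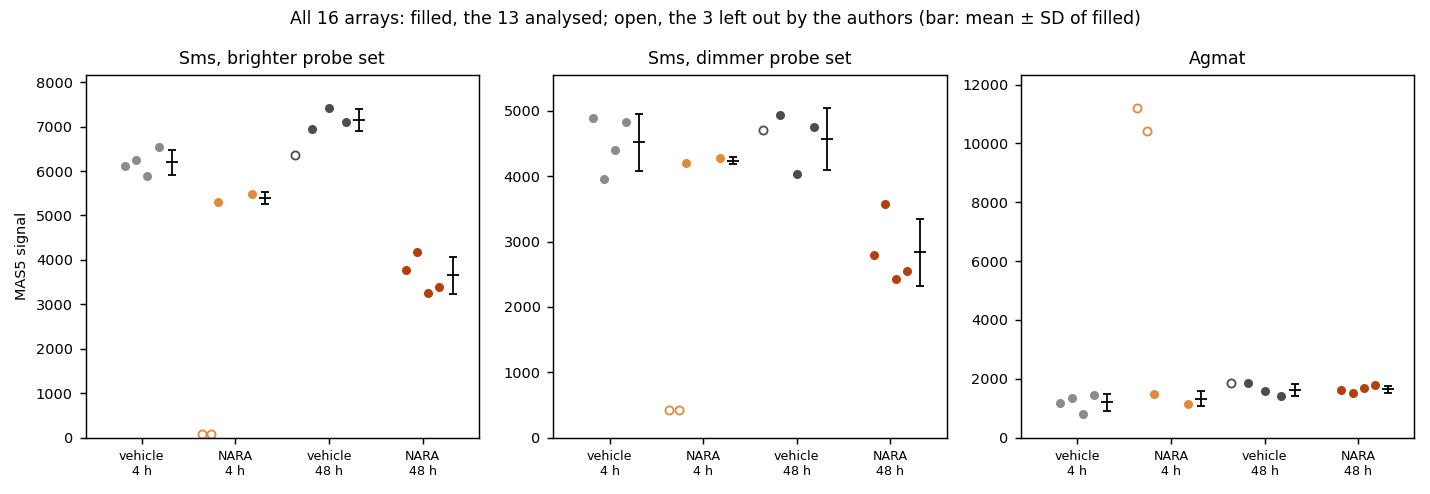
MAS5 signal on a linear scale (y axis, from 0) of both Sms probe sets and of Agmat on all 16 arrays, with filled points for the 13 arrays analysed, open points for the 3 left out by the authors and bars for mean ± SD of the filled points. On the left-out NARA 4 h arrays the brighter Sms probe set reads 88.0 and 90.3 and Agmat 11217 and 10411, while the left-out vehicle 48 h array reads 6351 for Sms.

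On NARA 4 h replicates 1 and 4 some of the polyamine genes lay far outside the range of the 13 arrays, while Amd1, at 3780 and 2691, and the brighter Oaz2 probe set, at 4327 and 4780, lay within it. Sms was at 88.0 and 90.3 on its brighter and 418 and 417 on its dimmer probe set, below all 13 arrays. Oaz1 was at 23494 and 21162 and Sat1 at 9766 and 10686.5, both also below the 13. Agmat was at 11217 and 10411 against at most 1850 elsewhere among the 13. On these arrays 11 liver genes on the array summed to 1400670 and 1725370, against 3733 to 5568 on the 13 arrays. Their part in these signals was not tested. Vehicle 48 h replicate 1 read 6351 for Sms, 21384 for Sat1 and 4713 for Odc1, the last below all 13 arrays.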

How the data were processed

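Signals of 16 Affymetrix Rat Genome 230 2.0 arrays were analysed. The deposited values are intensities, computed by the authors with MAS5 per the submitters' processing notes and the series' design text, and scaled to a trimmed mean of 1500. This scaling fixes each array's average, so a shift of most genes at once cannot be seen. RNA was extracted by Trizol per the labels' protocols, whereas the design text names a column kit. The 3 arrays that the authors left out for low correlation were left out here.

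Values were taken as log2(signal + 50), and probe sets whose signal averaged 300 or more on the 13 arrays, 20904 in all, were tested with limma 3.58.1 in R 4.3.3, on group means with 9 residual and 2.4 prior degrees of freedom and Benjamini-Hochberg adjustment over all of them. The number of arrays limits the precision. Gene symbols came from the platform annotation, in which 436 probe sets had several symbols and 9780 none. The brightest probe set of a gene stood for it. Related genes were named where they passed, or else the 2 with the smallest p at 48 h in each list. The 3 most similar genes were named for each gene that passed. Members and lists were chosen with earlier results of these data known. The code was tested on simulated data. Alternatives covered the arrays kept, offset, signal minimum, normalization, prior, groups fitted, probe set, replicate block and each array left out. Same-numbered arrays did not deviate together (r from -0.036 to 0.039 over 16 pairs), so numbers were not taken to pair samples.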

Additional observations from a re-analysis of the deposited data

Results flagged for a closer look

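Agmat signal on the NARA 4 h arrays left out by the authors stood above the level in the other arrays. It was 11217 on replicate 1 and 10411 on replicate 4, more than 2 times the highest of the 13 arrays analysed.

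The dimmest Azin1 probe set, which was below the minimum signal and not tested, read 331 on vehicle 4 h replicate 2, far from the 23.3, 36.5 and 53.1 of the other vehicle 4 h arrays. Chance alone sets 1 sample apart in about 1 in 20 groups by this measure.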

How the results depend on the processing

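The fall of Sms at 48 h kept its direction in all 26 alternatives and lost its call in 2, all 16 arrays and all 16 with array weights. The low number of NARA 4 h arrays and the dim signal of Smox limit what could be seen.

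Polyamine genes called at 48 h numbered 1, against 0 with all 16 arrays, 0 with array weights, 2 with a prior that is trended and robust and 2 with a signal minimum of 1000. For the difference between the 48 h and 4 h effects, and for time in NARA, 0 became 1 with that minimum and 1 with that prior, and the count for time in NARA was 0 to 1 when single arrays were left out (1 without NARA 48 h replicate 2). Probe sets called over the whole array at 4 h numbered 0 by limma (992 at an unadjusted p under 0.05), against 1 with all 16 arrays, 4 with weights, 4 with only the groups compared, 2 with the minimum of 1000, 9 with the trended prior and 0 to 19 without single arrays (19 without NARA 4 h replicate 3, 11 without replicate 2). At 48 h they numbered 586, against 39 with all 16, 217 with only the groups compared, 355 without a minimum, 1069 with the minimum of 1000, 1098 with the trended prior and 310 to 527 without single arrays (310 without vehicle 48 h replicate 3, 321 without replicate 2). For the difference they numbered 26, against 0 with all 16 (2101 at an unadjusted p under 0.05 in limma), 60 with vehicle 48 h replicate 1 put back, 46 with offset 200, 11 without a minimum, 93 with the minimum of 1000, 126 with the trended prior and 1 to 32 without single arrays (1 without vehicle 48 h replicate 3 or NARA 48 h replicate 4, 5 and 8 without NARA 4 h replicates 3 and 2, 13 without vehicle 4 h replicate 3, 17 without vehicle 48 h replicate 2). For time in NARA they numbered 164, against 27 with all 16, 109 with weights, 13 with only the groups compared, 79 without a minimum, 325 with the minimum of 1000, 372 with the trended prior and 69 to 152 without single arrays (69 and 107 without NARA 4 h replicates 2 and 3, 77 and 79 without NARA 48 h replicates 3 and 4). For time in vehicle they numbered 0 (1536 at an unadjusted p under 0.05 in limma) and 0 to 2 without single arrays (2 without vehicle 48 h replicate 2). The causes were not tested.

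With the replicate number as a block, 312 probe sets were called at 48 h, 0 for the difference (1638 at an unadjusted p under 0.05 in limma) and 51 for time in NARA, and Sms at 48 h stayed called (-0.97, adjusted p = 0.00810). Under the block Amd1 turned to -0.031 for the difference and Smox to 0.064 for time in NARA.

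Reversals touched values that had not passed. With vehicle 48 h replicate 1 put back, and with all 16 arrays, Odc1 at 48 h turned to 0.031 and Agmat to -0.020. With all 16 arrays Oaz1 turned to -0.53 and Oaz2 to -0.024 at 4 h, the difference to 1.92 for Sms, 0.17 for Sat1 and 0.75 for Azin1, and time in NARA to -0.15 for Odc1, 2.08 for Sms, -1.19 for Agmat, 0.27 for Sat1, 0.61 for Oaz1, 0.052 for Oaz2 and 0.47 for Azin1. With weights Amd1 turned to -0.025 at 4 h, the Azin1 difference to 0.020, and time in NARA to 0.030 for Oaz1 and 0.0047 for Oaz2. Quantile normalization turned Oaz1 over time in NARA to 0.015. The other probe set gave -0.12 for Oaz2 at 4 h, -0.062 for Oaz2 over time in vehicle and 0.012 for Azin1 over time in vehicle.

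Leaving out single arrays turned the sign within these ranges. At 4 h they were -0.20 to 0.095 for Amd1, -0.31 to 0.093 for Srm, -0.022 to 0.34 for Agmat, -0.053 to 0.0051 for Sat1 and -0.023 to 0.13 for Oaz2. At 48 h they were -0.22 to 0.0068 for Odc1 and -0.057 to 0.12 for Agmat. For the difference they were -0.31 to 0.048 for Agmat, -0.25 to 0.047 for Azin1 and -0.82 to 0.014 for Smox. For time in vehicle they were -0.17 to 0.12 for Amd1 and -0.24 to 0.60 for Smox. For time in NARA they were -0.036 to 0.13 for Odc1, -0.062 to 0.010 for Oaz1, -0.083 to 0.068 for Oaz2 and -0.45 to 0.0011 for Smox.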
